A study of Mus musculus with 6 samples.

Results

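The YAP, TAZ, TEAD and target genes were 10 of the 21959 genes counted in RNA of a mouse gastric adenocarcinoma line and of its paclitaxel-resistant derivative. They were taken by name as listed Hippo effectors and targets: the co-activators Yap1 and Wwtr1 (TAZ), the DNA-binding partners Tead1, Tead2, Tead3 and Tead4, and the target genes Ankrd1, Ccn1 (Cyr61), Ccn2 (Ctgf) and Amotl2. The rule itself uses no measured value, but the list was drawn up with earlier results of these data known. The parental line is labelled MPC and the resistant line MPC-PTX, and the paper calls them MTC and MTC-R. Each line was sequenced in 3 libraries, and both carry the genotype CDH1-/-;Trp53-/-. They trace back to gastric organoids of a C57BL/6J mouse with floxed Trp53 and Cdh1 and a Mist1-CreER driver, which were knocked out ex vivo and grown as a subcutaneous tumour in BALB/c nude mice. MPC cells had no drug, whereas MPC-PTX cells went through over 30 cycles of paclitaxel (PTX, a microtubule-stabilising drug). Each line passed monoclonal selection, so each stands for 1 clone, and what the drug and what the choice of a clone contributed to a difference cannot be told apart. The sources used here do not say whether the 3 libraries of a line came from separate cultures, and if they did not, the p-values measure only the spread between these samples.

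YAP and TAZ carry the output of the Hippo pathway. When the MST and LATS kinases are active, YAP and TAZ are phosphorylated and held in the cytoplasm or degraded, and when the kinases are inactive they enter the nucleus, bind TEAD factors and switch on genes for growth, matrix and cell shape. In gastric epithelium and other epithelia this branch responds to cell density, adhesion and the cytoskeleton. Much of its control acts on the proteins, which RNA counts do not show.

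TEAD factors bind the core GGAATG. The promoters of Ankrd1, Ccn1 and Amotl2 are shown because these are target genes among the members with a promoter in the table used, with the core in capitals on whichever strand it lay. The RefSeq table (GRCm38.p6) had promoters for 7 of the 10 members, and those of Tead1, Tead4 and Ccn2 were not analysed here. Each line below holds the 250 bases before the annotated start, 5′ to 3′ on the strand of the gene: Ankrd1 at chr19:36119845-36120094 (minus), Ccn1 at chr3:145649986-145650235 (minus) and Amotl2 at chr9:102717554-102717803 (plus).
Ankrd1: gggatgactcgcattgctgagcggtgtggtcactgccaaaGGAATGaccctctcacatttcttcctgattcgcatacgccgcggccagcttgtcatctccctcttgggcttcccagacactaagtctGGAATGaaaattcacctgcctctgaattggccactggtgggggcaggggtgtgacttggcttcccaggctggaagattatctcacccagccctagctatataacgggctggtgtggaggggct
Ccn1: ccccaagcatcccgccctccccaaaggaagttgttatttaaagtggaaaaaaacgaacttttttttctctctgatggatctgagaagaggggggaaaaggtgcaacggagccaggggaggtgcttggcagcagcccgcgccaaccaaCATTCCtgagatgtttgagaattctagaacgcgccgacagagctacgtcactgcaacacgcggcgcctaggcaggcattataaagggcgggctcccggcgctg
Amotl2: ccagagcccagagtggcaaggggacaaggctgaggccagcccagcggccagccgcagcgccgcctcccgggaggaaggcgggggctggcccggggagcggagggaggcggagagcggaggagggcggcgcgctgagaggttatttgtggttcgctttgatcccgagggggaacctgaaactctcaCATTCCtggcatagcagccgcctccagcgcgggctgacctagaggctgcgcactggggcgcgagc

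The Ankrd1 promoter held 2 TEAD cores, whose first bases lay 210 and 123 bases before the start. The Ccn1 promoter held 1 core at 103 bases and the Amotl2 promoter 1 core at 65 bases. Counting either strand and any annotated start of a gene, the core was in 6 of the 7 members with a promoter (all but Tead2), against 14.4% of 27025 genes. Tead3 and Wwtr1 have more than 1 start in that table, which gives them more windows. The AP-1 core TGANTCA, searched on both strands because AP-1 often binds beside TEAD, was in 0 of the 7 and in 7.82% of all genes, so no AP-1 core overlapped a TEAD core. These letter matches are a description and show no binding. Ankrd1 and Amotl2, which fell, and Ccn1, which did not pass the test, all carried a TEAD core.

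The libraries held 16574580 to 23148182 counts, and 13897 to 14295 genes had at least 1 count in a library. Parental libraries varied more than resistant ones, with a biological coefficient of variation of 17.9% in MPC and 3.01% in MPC-PTX. MPC replicate 3 stood apart from MPC replicate 1 in a way that followed base composition and length: over genes, its log2 ratio to replicate 1 had a Spearman rho of −0.55 with GC content and 0.47 with length. MPC replicate 1 stood apart in immediate early genes, as given beside the Ccn genes. Of the epithelial markers, 9 of 9 were expressed, and their summed level was 9717 to 11226 CPM in MPC and 5858 to 6042 CPM in MPC-PTX. CPM, the usual depth-scaled count, divides the reads of a gene by the scaled read total of its library. Of 13 gastric markers only 4 had enough counts to be tested, and Gkn2, Tff1, Tff2 and Pgc, which mark differentiated gastric mucosa, were at 0 in all 6 libraries. Markers of fibroblasts, leukocytes and endothelial cells summed to at most 12.8 CPM in any library. Cdh1 counts stood at 132 to 136 CPM in MPC and 131 to 136 CPM in MPC-PTX, and Trp53 counts at 3.25 to 5.77 and 5.86 to 6.59 CPM. A count over a whole gene does not show which exons were deleted, so these values check no label.

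All 10 members were expressed well above the filter, the lowest count being 344 reads for Tead4 and the highest 24340 for Ccn2. Of the 10 members, 5 passed an adjusted p of 0.05 between the lines, 2 higher in MPC-PTX (Wwtr1 and Tead4) and 3 lower (Ankrd1, Ccn2 and Amotl2). With the quasi-likelihood test of edgeR and p-values adjusted by Benjamini-Hochberg over all 11795 genes tested, 29.7% of the genes passed, 14.1% higher and 15.6% lower. The 2 lines did not overlap in 6 of 10 members, against 46.9% of all genes tested. The median log2 fold change was −0.06 over the members and 0.04 over all genes tested. None of the 10 reached the study's own cut-off of a log2 fold change beyond 1 with an unadjusted p below 0.05, which 3.77% of all genes met upwards and 4.34% downwards. These are bulk libraries, so fewer cells expressing a gene and less RNA per cell cannot be told apart.

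**Figure D1:**
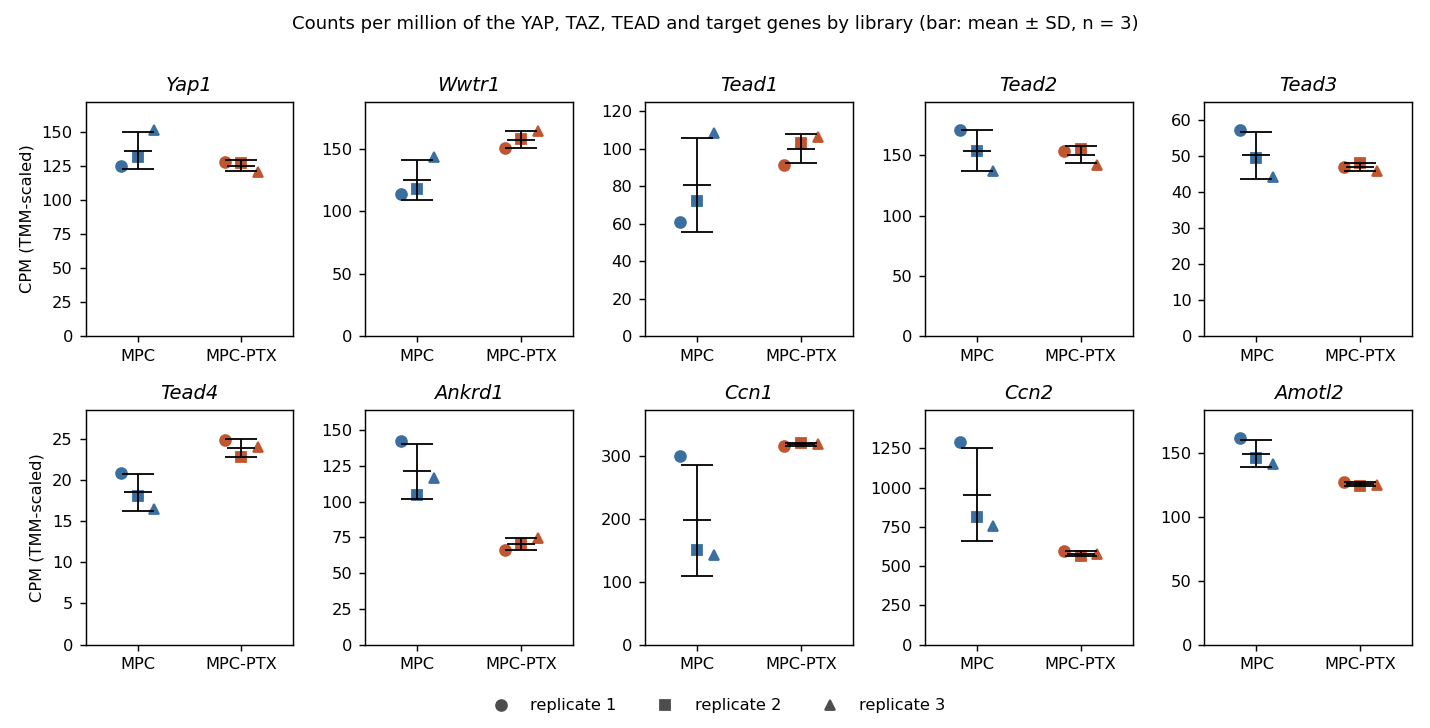
Each panel plots 1 member, with CPM scaled by TMM library factors on a linear axis from 0 and 1 point per library, 3 for MPC (blue) and 3 for MPC-PTX (orange). Bars give mean ± SD. Ankrd1, Ccn2 and Amotl2 sat lower in all 3 MPC-PTX libraries, and Wwtr1, Tead4 and Ccn1 sat higher. MPC replicate 1 (circle) lay far above the other MPC libraries for Ccn1 and Ccn2.

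Of the 2 co-activators, Wwtr1 rose in MPC-PTX while Yap1 did not pass the test. Yap1 (ENSMUSG00000053110, chromosome 9, 7931999 to 8004596, GRCm38) stood at 125, 132 and 152 CPM in MPC replicates 1 to 3 and at 128, 128 and 121 CPM in MPC-PTX. The resistant libraries lay inside or just under the parental range. The log2 fold change of Yap1 was −0.12 (SE 0.08, 95% interval −0.32 to 0.08, adjusted p = 0.325), an interval that reaches farther below 0 than above it. With GC content and length corrected it was −0.22 (adjusted p = 0.0199), in a fit that called more genes in all (2419 lower, against 1841 in the main fit). Wwtr1 (ENSMUSG00000027803, chromosome 3, 57455649 to 57575910) stood at 114, 118 and 144 CPM in MPC and at 150.4, 157 and 164 CPM in MPC-PTX. Every resistant library was above every parental one, the nearest being MPC replicate 3. The mean went from 125 ± 16.1 to 157 ± 6.76 CPM (SD, n = 3), a log2 fold change of 0.33 (SE 0.10, 95% interval 0.10 to 0.56, adjusted p = 0.0410). This call was lost without MPC replicate 1 (adjusted p = 0.0656), without MPC replicate 2 (0.148) and without any single MPC-PTX library (0.0926 to 0.147).

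The balance of the 2 co-activators can be read within a library, where scaling between libraries has no part. Reads of Yap1 over reads of Wwtr1 were 1.10, 1.12 and 1.06 in MPC and 0.852, 0.811 and 0.736 in MPC-PTX. The lines did not overlap, and parental cells had slightly more Yap1 reads while resistant cells had more Wwtr1 reads. Reads also follow transcript length, so these are not an order of level. Per kilobase of the longest transcript, Wwtr1 averaged 26.6 and Yap1 25.8 CPM per kb in MPC, with overlapping libraries. By the length of all exons together the values in MPC were 26.2 and 14.7. The mean ratio was 1.09 ± 0.0332 in MPC and 0.800 ± 0.0590 in MPC-PTX (SD, n = 3), 1.37-fold lower. This ratio and the others between members were chosen after the values were seen and were not tested, and an exact permutation test of 3 against 3 could not give a p below 0.1.

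The TEAD genes encode the DNA-binding partners in the complex, and only the least abundant of them, Tead4, rose in the fit of all 6 libraries with TMM scaling. Tead4 (ENSMUSG00000030353, chromosome 6, 128224288 to 128300823) stood at 20.9, 18.1 and 16.5 CPM in MPC and at 24.9, 22.8 and 24.1 CPM in MPC-PTX. All resistant libraries were above all parental ones. Its log2 fold change was 0.37 (SE 0.11, 95% interval 0.12 to 0.62, adjusted p = 0.0388). The call was lost without MPC replicate 2 (adjusted p = 0.121), without MPC replicate 3 (0.0504) and without any single MPC-PTX library (0.0954 to 0.144). It was also lost with DESeq2 (0.0741), with DESeq2's size factors (0.0572) and with at least 10 counts required in every library (0.0636).

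Tead1 (ENSMUSG00000055320, chromosome 7, 112679318 to 112906807) stood at 60.9, 72.2 and 108 CPM in MPC and at 91.3, 103 and 106 CPM in MPC-PTX. MPC replicate 3 was the highest of the 6 and the other 2 parental libraries were the lowest. The log2 fold change was 0.31 (SE 0.21, 95% interval −0.18 to 0.80, adjusted p = 0.299), and without MPC replicate 3 it was 0.53 (SE 0.09, adjusted p = 0.00124). Tead2 (ENSMUSG00000030796, chromosome 7, 45215753 to 45233644) stood at 171, 154 and 137 CPM in MPC and at 154, 155 and 142 CPM in MPC-PTX, so that the resistant libraries lay within the parental range. Its log2 fold change was −0.03 (SE 0.09, 95% interval −0.25 to 0.18, adjusted p = 0.822). Tead2 overlaps Cd37 on the other strand, and since the use of strand is not given in the sources used here, reads of the pair cannot be told apart. The spans of Yap1, Wwtr1, Tead1, Tead4 and Ccn2 also overlap non-coding genes or pseudogenes on the other strand, with the same limit. Tead3 (ENSMUSG00000002249, chromosome 17, 28331671 to 28350817) stood at 57.2, 49.4 and 44.2 CPM in MPC and at 47.1, 48.1 and 45.9 CPM in MPC-PTX. Its log2 fold change was −0.10 (SE 0.10, 95% interval −0.34 to 0.15, adjusted p = 0.522).

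MPC replicate 3 was at an extreme of the parental libraries for every TEAD gene, highest for Tead1 and lowest for the other 3. Tead1 has a GC content of 46.5%, whereas Tead2, Tead3 and Tead4 have 57.9%, 58.1% and 58.1%. Without that library Tead2 passed the test at −0.16 (adjusted p = 0.0423) and Tead3 at −0.23 (adjusted p = 0.0234), while 52.5% of all genes passed. With GC content and length corrected, the log2 fold change of Tead1 was 0.09 (adjusted p = 0.252) and that of Tead4 was 0.41 (adjusted p = 0.00306). The ratio of Tead4 reads to Tead2 reads, 2 genes of like GC content, was 0.122, 0.118 and 0.121 in MPC and 0.162, 0.147 and 0.169 in MPC-PTX. The parental ratios lay close together at 0.120 ± 0.00192 (SD, n = 3) and the resistant ones at 0.159 ± 0.0113, 1.32-fold higher with no overlap.

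**Figure D2:**
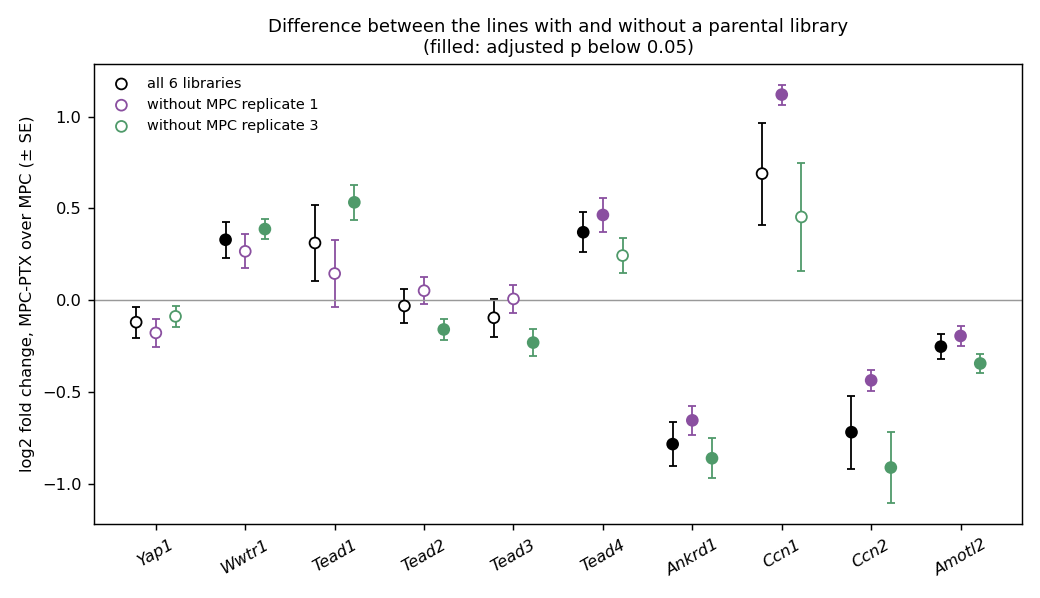
Points give the log2 fold change of MPC-PTX over MPC for each member with its SE, from all 6 libraries (black), without MPC replicate 1 (purple) and without MPC replicate 3 (green), and filled points have an adjusted p below 0.05. Ankrd1, Ccn2 and Amotl2 stayed below 0 and filled in all 3 fits, Ccn1 was filled only without MPC replicate 1, and Tead1, Tead2 and Tead3 were filled only without MPC replicate 3.

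Ankrd1, which encodes a nuclear ankyrin repeat protein known as a YAP and TAZ target and as a stress-induced gene of the heart, had the lowest adjusted p of the members. Its log2 fold change was the farthest from 0 with all 6 libraries, but Ccn1 was farther without MPC replicate 1 and with the replicate block, and Ccn2 without MPC replicate 3. Ankrd1 (ENSMUSG00000024803, chromosome 19, 36111961 to 36120099) stood at 142, 105 and 117 CPM in MPC and at 66.4, 70.2 and 74.9 CPM in MPC-PTX. The highest resistant library was well under the lowest parental one. The mean fell from 121 ± 19.1 to 70.5 ± 4.23 CPM (SD, n = 3), 1.72-fold lower, with a log2 fold change of −0.78 (SE 0.12, 95% interval −1.06 to −0.51, adjusted p = 0.00299). Ankrd1 alone among the members was called in all 6 fits that left out 1 library (log2 fold change −0.88 to −0.65, adjusted p 0.000241 to 0.0207) and in all 7 other settings with the same threshold. Since Ankrd1 is also a muscle gene, muscle markers are given beside it. The 6 listed summed to 38.3 to 43.0 CPM in MPC and 21.8 to 26.0 CPM in MPC-PTX, with none at 0 in all libraries, and 2 of the 4 tested fell, Tnnt2 (log2 fold change −0.92, adjusted p = 0.000908) and Myh6 (−0.77, adjusted p = 0.0354). Des, which defines muscle cells, was at 0.726 to 1.17 CPM in every library and Ckm at no more than 0.721 CPM. The part of these markers in the Ankrd1 result was not tested.

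Ccn1 and Ccn2 encode secreted matricellular proteins of the same family and are the usual readouts of YAP and TAZ activity, yet Ccn2 fell in MPC-PTX while the value of Ccn1 lay above 0 and did not pass the test with all 6 libraries. Ccn2 (ENSMUSG00000019997, chromosome 10, 24595442 to 24598683) stood at 1293, 815 and 753 CPM in MPC and at 594, 566 and 578 CPM in MPC-PTX. All resistant libraries were below all parental ones, and MPC replicate 1 was far above the other 2. The mean fell from 953 ± 296 to 579 ± 13.9 CPM (SD, n = 3), 1.65-fold lower, with a log2 fold change of −0.72 (SE 0.20, 95% interval −1.19 to −0.25, adjusted p = 0.0353). Without MPC replicate 1 the log2 fold change was smaller but still called, −0.44 (SE 0.06, adjusted p = 0.00197). The call was lost without MPC replicate 2 (adjusted p = 0.0504) and without any single MPC-PTX library (0.0998 to 0.114).

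Ccn1 (ENSMUSG00000028195, chromosome 3, 145646976 to 145649981) stood at 299.6, 151 and 142 CPM in MPC and at 316, 321 and 318 CPM in MPC-PTX. Every resistant library was above every parental one, but MPC replicate 1 came close to them. The coefficient of variation was 44.8% in MPC and 0.872% in MPC-PTX. The log2 fold change was 0.69 (SE 0.28, 95% interval 0.03 to 1.35), with an unadjusted p of 0.0430 and an adjusted p of 0.109. Without MPC replicate 1 it was 1.12 (SE 0.05, adjusted p = 3.74e-05), whereas leaving out any other library gave 0.45 to 0.70 (adjusted p 0.213 to 0.277). Ccn1 also passed with DESeq2 (adjusted p = 0.0300) and with GC content and length corrected (0.0251), and with the replicate number as a block (0.0283). The corrected fit called 2475 of all genes higher, against 1668 in the main fit.

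Reads of Ccn1 over reads of Ccn2 were 0.232, 0.185 and 0.189 in MPC and 0.532, 0.568 and 0.550 in MPC-PTX. MPC replicate 1, high in both genes, had nearly the ratio of its line. The mean ratio was 0.202 ± 0.0259 in MPC and 0.550 ± 0.0179 in MPC-PTX (SD, n = 3), 2.72-fold higher, and 2.62-fold to 2.94-fold higher when 1 library at a time was left out. Of the 3 ratios between members this was the one with the largest gap between the lines. It was chosen after the values were seen and carries no test.

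**Figure D3:**
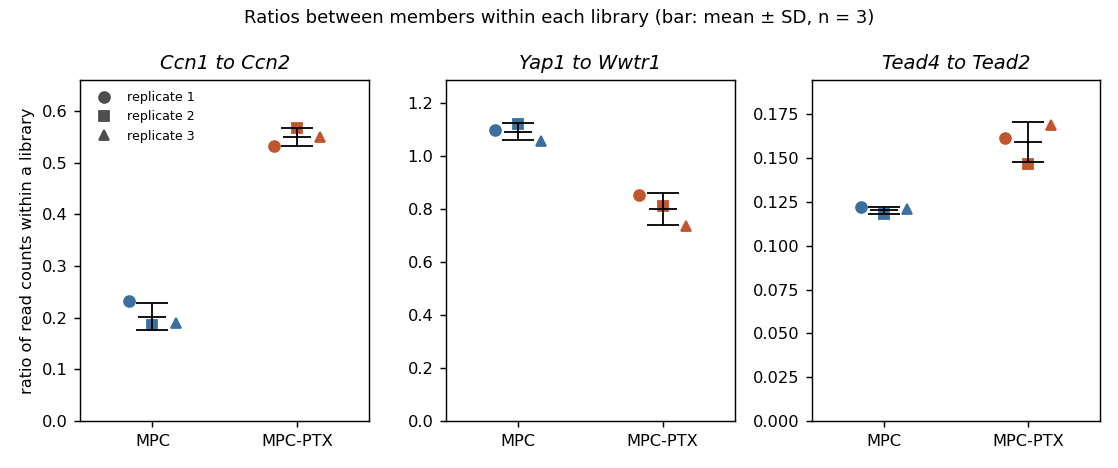
Each panel plots the ratio of read counts of a pair of members in each library, on a linear axis from 0, with mean ± SD bars (n = 3). The lines did not overlap in any panel. The ratio of Ccn1 to Ccn2 was 0.185 to 0.232 in MPC and 0.532 to 0.568 in MPC-PTX.

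Ccn1 and Ccn2 are also immediate early genes, a class known for fast and short-lived induction, so 13 genes of the FOS, JUN, EGR and IER families and Atf3 were read beside them, a set put together after values were seen. MPC replicate 1 was above both other parental libraries in 11 of the 13, all but Jun and Fosl2. All 3 MPC-PTX libraries were above MPC replicates 2 and 3 in 10 of the 13, all but Jun, Egr3 and Atf3. The shares of all genes with either pattern were not worked out, so both counts are a description and mark no trait of this class. Egr1, a zinc finger factor, stood at 373, 44.6 and 45.9 CPM in MPC and at 310.5, 310.5 and 316 CPM in MPC-PTX. In MPC replicate 1 it was 8.25 times the mean of the other 2 parental libraries, and the mean of MPC-PTX was 6.90 times that level. Fos was 5.01 times, Ier2 2.41 times, Ier3 2.39 times and Junb 1.89 times as high in MPC replicate 1 as in the mean of MPC replicates 2 and 3. Jun, at 54.8, 60.8 and 59.1 CPM in MPC and 58.9, 53.1 and 53.6 CPM in MPC-PTX, went against this. Among the target members the same quotient was 2.05 for Ccn1, 1.65 for Ccn2, 1.28 for Ankrd1 and 1.13 for Amotl2.

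Against the same MPC replicates 2 and 3, the mean of MPC-PTX was 1.87 times as high for Fos, 2.35 times for Ier2, 1.70 times for Ier3 and 1.39 times for Junb. It was 0.921 times for Jun. Ccn1 stood at 2.17 times. Ccn2, Ankrd1 and Amotl2 stood at 0.739, 0.636 and 0.874 times. Ccn2 was thus high with most of these genes in MPC replicate 1 but was lower in MPC-PTX, where most of them were again above MPC replicates 2 and 3. The part of the immediate early genes in the results on Ccn1 and Ccn2 was not tested.

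**Figure D4:**
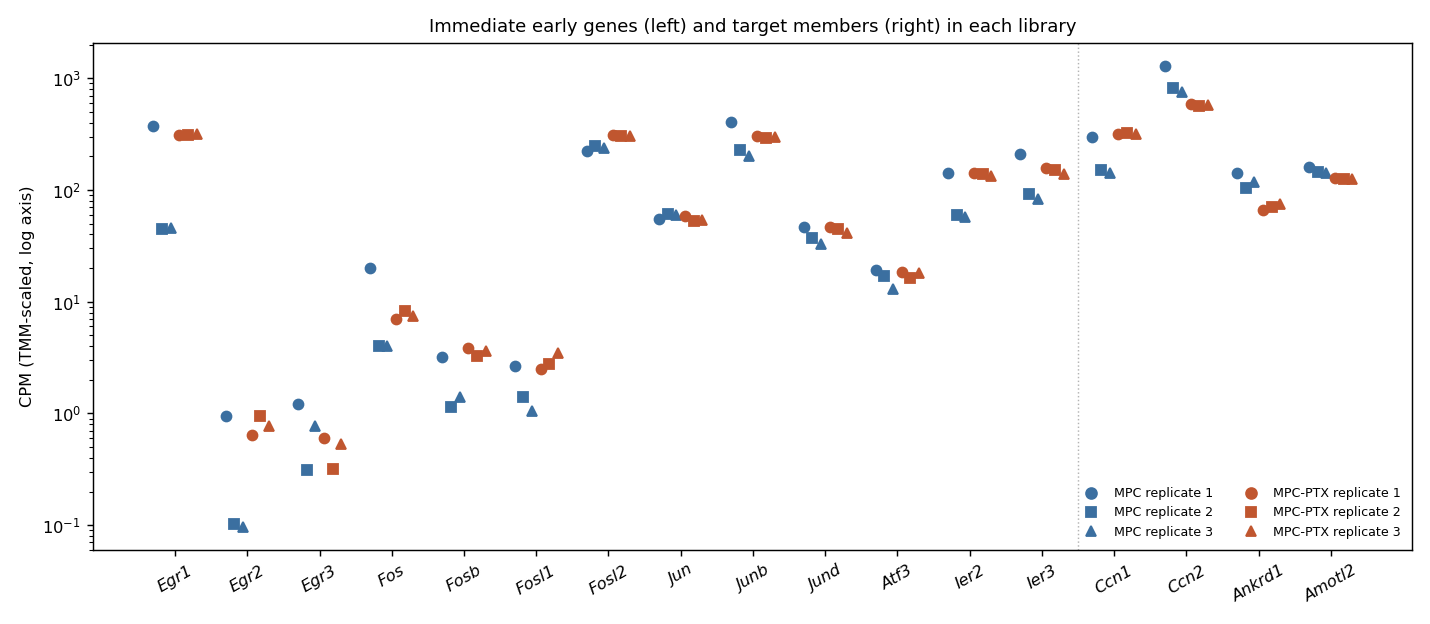
CPM per library on a log axis, for 13 immediate early and AP-1 genes (left of the dotted line) and the 4 target members (right), with MPC in blue and MPC-PTX in orange and 1 marker shape per replicate. MPC replicate 1 (blue circle) was above the other parental libraries for the 4 targets and 11 of the 13 other genes, and the MPC-PTX libraries were above MPC replicates 2 and 3 for 10 of the 13 and Ccn1 but below them for Ccn2, Ankrd1 and Amotl2.

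Amotl2 encodes an angiomotin, which binds YAP at junctions and is itself induced by YAP. Amotl2 (ENSMUSG00000032531, chromosome 9, 102716672 to 102733418) stood at 162, 146 and 141 CPM in MPC and at 128, 124 and 125 CPM in MPC-PTX. All resistant libraries were below all parental ones. The mean fell from 149.6 ± 10.7 to 126 ± 1.72 CPM (SD, n = 3), with a log2 fold change of −0.25 (SE 0.07, 95% interval −0.42 to −0.09, adjusted p = 0.0313). It remained called without MPC replicate 1 (adjusted p = 0.0292) or 3 (0.000404), but not without MPC replicate 2 (0.0783) or any single MPC-PTX library (0.106 to 0.130).

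Levels of different members were compared per kilobase of the longest annotated transcript. In MPC the order ran from Ccn2 at 383 CPM per kb through Ccn1 at 97.8, Ankrd1 at 60.0, Tead2 at 45.3, Amotl2 at 33.8, Wwtr1 at 26.6, Yap1 at 25.8, Tead3 at 14.6 and Tead1 at 8.08 to Tead4 at 6.02. Neighbours whose libraries overlapped were Ccn1 with Ankrd1, Wwtr1 with Yap1 and Tead1 with Tead4. In MPC-PTX, Ccn2 (233 CPM per kb), Ccn1 (158) and Tead2 (44.4) were followed by Ankrd1 at 34.9 and Wwtr1 at 33.5, which overlapped. Amotl2 (28.4), Yap1 (23.8), Tead3 (13.7), Tead1 (10.0) and Tead4 (7.78) came after them with no overlap between neighbours. Ankrd1 was above Tead2 in MPC and below it in MPC-PTX, and by the length of all exons together it was also below Wwtr1 in MPC-PTX. Tead2 made up 61.1% ± 2.66 of the per-length TEAD signal in MPC and 58.5% ± 1.39 in MPC-PTX (SD, n = 3). The share of Tead4 was 8.11% ± 0.376 in MPC and 10.3% ± 0.599 in MPC-PTX. Which transcript the cells use is not known from counts per gene, and the length of all exons together changed the order. By that length Wwtr1 was above Amotl2 in MPC (26.2 and 23.8 CPM per kb) and above Tead2 in MPC-PTX (32.9 and 31.5), and Tead1 was above Tead3 in MPC-PTX (7.37 and 7.01). These are orders of means, and the libraries overlapped in each of these pairs.

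Other genes of the pathway were read from the same fit, from lists set up by role with earlier results of these data known. Of 17 genes of the Hippo kinase core, 16 were tested, 0 were higher and 2 lower, with a median log2 fold change of 0.05. Over all genes tested, 14.1% were higher and 15.6% lower, with a median of 0.04. By an unadjusted p under 0.05, 1 was higher and 2 were lower, and DESeq2 called 0 higher and 2 lower. The 2 that fell were Lats2, the kinase that phosphorylates YAP and TAZ and is also a target of theirs (−0.37, SE 0.11, adjusted p = 0.0467), and Taok3, an upstream kinase of the MST kinases (−0.34, SE 0.07, adjusted p = 0.0101). Without MPC replicate 3 the core had 7 higher and 2 lower, in a fit where 25.4% of all genes were higher and 27.1% lower. Leaving out MPC replicate 2 or any MPC-PTX library ended the call of Lats2 (adjusted p 0.0993 to 0.162), and leaving out any MPC-PTX library ended that of Taok3 (0.0584 to 0.0596).

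Of 22 upstream and junction regulators, 18 were tested, 2 were higher and 6 lower, with a median log2 fold change of −0.11. The counts of this list and of the TEAD cofactors below stand beside 14.1% higher and 15.6% lower of all genes. Amot, the angiomotin related to Amotl2, fell by 0.53 on the log2 scale (SE 0.13, adjusted p = 0.0187). The 2 that rose, named here after their values were seen, were Nf2 (merlin, which activates LATS at the membrane; 0.33, adjusted p = 0.00481) and Wwc2 (a KIBRA relative; 0.32, adjusted p = 0.0276). The call of Amot was lost without MPC replicate 2 (adjusted p = 0.0651) and without any MPC-PTX library (0.0682 to 0.0782). Of 11 TEAD cofactors and competitors, 9 were tested, 2 were higher and 0 lower, with a median of 0.25. These were Runx3, at 37.4, 25.3 and 27.1 CPM in MPC and 57.8, 59.2 and 63.0 CPM in MPC-PTX (log2 fold change 1.00, SE 0.15, adjusted p = 0.00269), and Runx2 (0.66, SE 0.09, adjusted p = 0.00195). Both are Runt-domain factors that can bind YAP, TAZ or TEAD, and the libraries of the lines did not overlap for either.

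Of 18 other YAP and TAZ target genes, 17 were tested, 1 was higher and 9 were lower, against 14.1% and 15.6% of all genes. Their median log2 fold change was −0.37, against 0.04 over all genes. Because the list was written with earlier results of these data known, its shares and median are a description, and no test was run over it. The counts were 1 and 10 without MPC replicate 1, 3 and 10 without MPC replicate 3 and 1 and 9 with DESeq2. Axl, a receptor tyrosine kinase, stood at 37.0, 32.0 and 29.6 CPM in MPC and at 8.29, 7.53 and 7.01 CPM in MPC-PTX, a log2 fold change of −2.11 (SE 0.12, adjusted p = 4.28e-05). F3, tissue factor, stood at 224, 213 and 249 CPM in MPC and at 65.7, 63.5 and 61.8 CPM in MPC-PTX (−1.85, SE 0.08, adjusted p = 1.49e-05). For both genes the gap between the lines was many times the spread within either line. Nuak2, a kinase of the AMPK family, stood at 57.2, 56.1 and 50.5 CPM in MPC and at 25.9, 25.9 and 25.4 CPM in MPC-PTX (−1.09, SE 0.08, adjusted p = 0.000130).

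Nt5e and Fjx1 fell as well but rest on few reads. Fjx1, a Golgi-associated secreted protein related to the fly gene four-jointed, had 190 reads in MPC and 36 in MPC-PTX, 5.44-fold more in MPC after scaling (95% counting interval 3.79 to 7.99). Nt5e, the ectonucleotidase CD73, had 50 and 6 reads, 8.58-fold more in MPC (3.68 to 24.5). These intervals cover counting error only. The filter kept Nt5e for its MPC libraries alone, which favours the direction seen. Neither Fjx1 nor Nt5e was tested where at least 10 counts were required in every library. The remaining 4 that fell were Myof, Lats2, Crim1 and Gadd45a, at log2 fold changes of −0.48, −0.37, −0.37 and −0.29. The 1 that rose was Igfbp3, a secreted binding protein of insulin-like growth factors (0.62, SE 0.07, adjusted p = 0.000906). These last genes were named after their values were seen. Ankrd1, Ccn2 and Amotl2 thus went the way of most of the other targets that passed, and Ccn1, which did not pass, had a value on the side of Igfbp3. A TEAD core was in the promoters of 3 of the 12 other targets with an entry, against 14.4% of all genes.

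**Figure D5:**
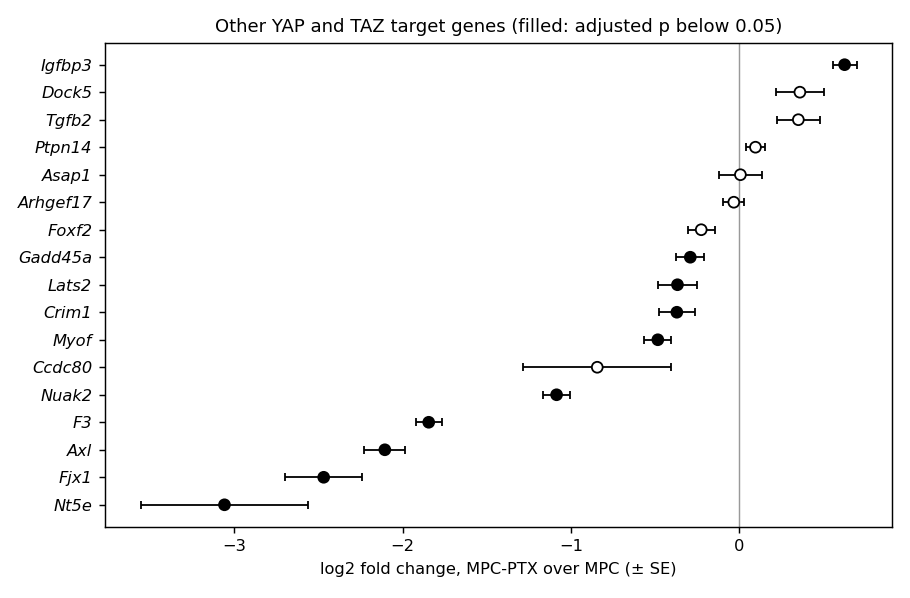
Log2 fold change of MPC-PTX over MPC with its SE for the 17 other YAP and TAZ targets that were tested, ordered by value, and filled points have an adjusted p below 0.05. Of them, 9 filled points lie below 0, down to −3.06 for Nt5e, and 1 lies above 0, Igfbp3 at 0.62.

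Lists of AP-1 subunits and of SRF and immediate early genes were also read. With all 6 libraries 14.1% of all genes were higher and 15.6% lower. Of 10 AP-1 subunits 8 were tested, 1 was higher and 0 lower, with a median of 0.14. The 1 that was higher was Fosl2 (0.37, SE 0.06, adjusted p = 0.00460). Without MPC replicate 1, 6 of the 8 were higher and 0 lower. In that fit 18.3% of all genes were higher and 17.7% lower. It leaves out the library that was above both other parental libraries in most immediate early genes. Of 16 SRF and immediate early genes 12 were tested, 0 were higher and 4 lower, with a median of −0.20. By an unadjusted p under 0.05, 1 was higher and 5 were lower, and DESeq2 called 0 higher and 5 lower. The actin-linked genes Cnn2 (−0.90, SE 0.07, adjusted p = 0.000137) and Vcl (−0.54, SE 0.08, adjusted p = 0.00258) fell, as did Tpm1 and Mrtfa (−0.28 and −0.41), which were named after their values were seen. Without MPC replicate 1, 14 were tested, of which 4 were higher and 5 lower, beside 18.3% and 17.7% of all genes in that fit. The list thus held genes of both directions once that library was left out.

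Of the other 4 CCN genes, 2 had enough reads to test of which 1 rose and 1 fell. Ccn3 had 15, 6 and 9 reads in MPC and 40, 26 and 33 in MPC-PTX, with a log2 fold change of 1.64 (SE 0.38, adjusted p = 0.0171). Ccn4 had 49, 25 and 39 reads in MPC and 6, 1 and 11 in MPC-PTX. Its log2 fold change was −2.68 (SE 0.60, 95% interval −4.09 to −1.28, adjusted p = 0.0143). The filter kept Ccn3 mainly for its MPC-PTX libraries and Ccn4 mainly for its MPC libraries, which favours the direction seen. Neither Ccn3 nor Ccn4 was tested where at least 10 counts were required in every library. With reads pooled by line, Ccn4 was 6.47-fold higher in MPC. The 95% counting interval of 3.91 to 11.3 covers counting error only and leaves out the spread between libraries. The call of Ccn3 was lost without MPC replicate 2 (adjusted p = 0.0647) and without MPC-PTX replicate 1 (0.0670) or 3 (0.0680), and that of Ccn4 without MPC-PTX replicate 1 (0.0730). Of 4 relatives of Ankrd1 and Amotl2, 2 were tested, and of these Amot fell.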

How the data were processed

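RNA was sequenced in 3 MPC and 3 MPC-PTX libraries after poly-A selection. Adapter and quality filtering by the authors used fastp 0.22.0 and mapping used HISAT2, and they deposited raw read counts per gene, not normalized. The counting tool, genome build, annotation, use of strand and treatment of multiply mapped reads are not given in the sources used here. Between the series table and the tables of single samples, 0 values differed.

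Library sizes were scaled by TMM. Genes were filtered with filterByExpr (minimum count 10), and 11795 were tested with edgeR 4.0.16 (robust glmQLFit and glmQLFTest, R 4.3.3) with Benjamini-Hochberg adjustment, called at an adjusted p below 0.05. CPM use the scaled library sizes, and the SE is the size of a log2 fold change over the square root of its F statistic. Positions and lengths are those of GENCODE M21 (GRCm38), in which 21902 of 21959 Ensembl identifiers were found, and promoters are from RefSeq (GRCm38.p6). The scripts were tested on simulated data. Libraries of a line differed by more than sampling noise (chi-square per gene at least 1.84) and were kept apart. A total of 51 rows have no gene symbol.

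The members and gene lists were chosen with earlier results of these data known. Named were all members, Cdh1 and Trp53, and from each list the genes with an adjusted p below 0.05 and a log2 fold change beyond 1, or, where fewer than 2 did so, the 2 with the largest change among those called. For the target members the 3 genes of at least 5 CPM with the highest Pearson r over the libraries were named too. One gene that meets this rule is not reported here. Alternatives were DESeq2 1.42.0, DESeq2's size factors, library size alone, other filters, a replicate block, a GC and length correction (loess, span 0.3), the cut-off of the study's methods and each library left out.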

Additional observations from a re-analysis of the deposited data

How the results depend on the processing

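For the 35 genes with values under the alternatives, among them all members, no called value changed direction. Of their values 401 kept their side of the threshold, 41 lost it and 8 gained it. Apart from the members, Cdh1 and Trp53, these genes were named because they were called with all 6 libraries, so this tally is no measure of stability. Fjx1, Nt5e, Ccn3, Ccn4 and Anxa10 had no value with at least 10 counts in every library. By the cut-off of the study's methods 445 genes were higher and 512 lower, of the members 0 and 0, and of the other listed pathway genes 3 and 6. Of the members 1 was higher with DESeq2's size factors and 1 with at least 10 counts in every library, since Tead4 was lost in both. With GC content and length corrected, 12 listed pathway genes were higher and 24 lower. Calls over all genes rose too in that fit, to 2475 higher and 2419 lower, from 1668 and 1841.

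With 1 library left out, 803 to 3020 genes were higher (1668 with all 6) and 1077 to 3227 lower (1841). The members had 0 to 2 higher and 1 to 5 lower, and the listed pathway genes 5 to 20 higher and 10 to 27 lower (7 and 21 with all 6). Both upper ends for all genes came without MPC replicate 3. Without MPC replicate 2 or any MPC-PTX library only Ankrd1 was called among the members. Such fits have fewer samples.

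Same-numbered libraries did not deviate together in every pair (correlations 0.15, −0.02 and 0.17), so the numbers were not taken to pair them. With the replicate number as a block, 1787 genes were higher and 1717 lower, of the members 3 and 3 (Ccn1 added), and of the listed pathway genes 10 and 21. The GC and length correction was not combined with the block. The median log2 fold change of all genes ranged from −0.0028 to 0.08 over the settings. Low reads limit Nt5e, Fjx1, Ccn3 and Ccn4.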

Other observations

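The genes whose log2 CPM followed each target member most closely over the 6 libraries are given as a description, out of 9901 genes compared. The 6 points are 3 libraries of each of 2 lines, so a gene with a like difference between the lines has a high Pearson r with the member. Closest to Ankrd1 were Hopx, a small homeodomain protein (r = 0.992), Calm2, a calmodulin gene (0.991), and Lrrc26 (0.990). Hopx averaged 23.9 CPM in MPC and 11.5 CPM in MPC-PTX. Closest to Ccn1 were Rrp1b, a nucleolar protein (0.999), Mthfd2, a mitochondrial folate enzyme (0.999), and Trib3, a stress-induced pseudokinase (0.998). Trib3 averaged 28.8 CPM in MPC and 63.8 CPM in MPC-PTX, and Mthfd2 82.3 and 142 CPM. Closest to Ccn2 were U2af1, a splicing factor (0.996), Llgl2, a polarity protein (0.994), and Gstm7 (0.994). Closest to Amotl2 were Rnf41, a ubiquitin ligase (0.998), Tut1 (0.996) and Pard6b, a polarity protein (0.995), which averaged 112 CPM in MPC and 84.4 CPM in MPC-PTX. No gene was among the closest 3 of more than 1 target member.

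The marker lists fixed for the cells themselves also differed between the lines. Of 9 epithelial markers 9 fell, among them Krt8 (log2 fold change −1.02, adjusted p = 0.000179) and Cldn4, a claudin (−1.13, adjusted p = 0.000717). Of the 4 gastric markers tested 3 fell and 1 rose. Ctse, cathepsin E, stood at 233 to 309.8 CPM in MPC and at 1.28 to 1.90 CPM in MPC-PTX, and Anxa10, an annexin of gastric epithelium, at 89.3 to 150.1 CPM and 0.180 to 0.427 CPM. Sox2, a stomach stem cell factor, rose (0.45, adjusted p = 0.00897).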
